A study of Homo sapiens with 12 samples.

Results

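The effect of silencing serum response factor (SRF) in prostate cancer cells without androgen was read from 6 of the 12 arrays of a study of LNCaP, an established androgen-sensitive human prostate adenocarcinoma line. Of these 6 arrays, 3 came from cells transfected with control siRNA and 3 from cells transfected with siRNA against SRF. All cells of the study had first been kept without androgen for 48 h. After a further 42 h from transfection these 6 cultures received ethanol, the vehicle, for 48 h, and the other 6 arrays of the same siRNA arms received R1881, a synthetic androgen, at 5 nM. The arrays are labelled as biological replicates without saying whether each was its own culture, and p-values here therefore reflect array-to-array spread alone, which may be technical. The sequence and number of the siRNAs were not given in the sources used here, so effects of SRF loss and effects of the siRNA itself cannot be told apart.

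Values are log2 GCRMA signals, the authors' background-corrected and normalized probe intensities. The genes described are the 10265 with a probe set that carried 1 gene symbol and lay above a log2 value of 4 on at least 3 of the 12 arrays, out of 54675 probe sets on the array. Where a gene had several, the one with the highest mean signal was used. Changes are SRF siRNA minus control siRNA in vehicle unless R1881 is named, with the moderated standard error (SE) of limma, and a gene was called higher or lower at a Benjamini-Hochberg adjusted p under 0.05 over all 10265 genes.

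SRF is a transcription factor that binds the CArG box in promoters of muscle, cytoskeletal and growth-induced genes. It works with myocardin-related cofactors (MRTFs), which leave the cytoplasm when monomeric actin runs low, or with ternary-complex factors of the ETS family, which are switched on by MAP kinase signalling. In the prostate it is studied as a partner of androgen receptor signalling and as a gene under androgen control.

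All 13 luminal markers tested were above a log2 value of 4 in both vehicle groups, among them STEAP1 at means of 13.77 with control and 14.01 with SRF siRNA and KRT18 at 12.79 and 12.57. No leukocyte marker was above 4 among the 11 on the array, and 1 of 10 markers of basal or mesenchymal lines, VIM, was. Of the fibroblast and endothelial markers 2 of 12 and 2 of 7 were above 4. In bulk RNA, fewer cells of a kind and less RNA per cell cannot be told apart. Correlations of whole arrays were 0.9966 to 0.9977 inside a vehicle group and 0.9863 to 0.9882 between the vehicle groups. The GAPDH 3-prime minus 5-prime control difference, a sign of RNA integrity, was 0.067, 0.244 and 0.113 with control siRNA and 0.370, 0.315 and 0.393 with SRF siRNA. The same difference for ACTB was 1.359, 1.494 and 1.257 with control siRNA and 1.571, 1.651 and 1.841 with SRF siRNA. The ranges of the 2 vehicle groups do not overlap for either measure. In R1881 GAPDH was at 0.445 to 0.491 with control and 0.368 to 0.641 with SRF siRNA, which overlap. The R1881 ranges for ACTB, 1.484 to 1.523 and 1.581 to 2.211, do not. The part of RNA integrity in the results was not tested. List counts that move by over 1.5 times with the GAPDH measure as a covariate are given beside them.

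SRF itself is shown first because it checks the silencing, and its promoter because SRF binds its own gene. The 150 bases before its start, chr6:43171119-43171268 on the plus strand of GRCh38.p14 from RefSeq, hold both of the CArG boxes found on either strand of the 250 bases searched, in capitals:
SRF: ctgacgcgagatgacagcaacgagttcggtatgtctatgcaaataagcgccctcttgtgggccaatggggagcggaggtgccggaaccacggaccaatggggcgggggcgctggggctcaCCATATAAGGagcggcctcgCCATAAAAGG
A CArG box lay in 1.14% of the 27305 promoter windows of the same length. The match is a description of the letters and not a measured binding site. SRF stood at log2 levels of 5.91, 6.14 and 6.17 with control siRNA and at 4.56, 5.06 and 4.58 with SRF siRNA, so that the groups did not overlap. SRF fell by 1.34 ± 0.14 on the log2 scale, to 39.5% of its control value (adjusted p = 7.98e-06, limma). A second SRF probe set lay under the filter on low values.

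Silencing in vehicle moved genes widely and in both directions. Limma called 5717 genes, 55.7% of those tested, with 3151 higher (30.7%) and 2566 lower (25%). With the GAPDH covariate the counts were 1893 higher and 2039 lower, so that more genes were lower than higher. Most changes were small, and the median over all genes was 0.04. At least 2-fold changes made up 9.28% of genes, 523 higher (5.09%) and 430 lower (4.19%), and at least 8-fold changes 14 and 7. The 3 silenced arrays lay outside the range of the 3 control arrays for 61.2% of genes. Each list count in vehicle below is to be read beside 30.7% higher and 25% lower among all genes. For list counts in R1881 the shares are 33.6% and 25.4%. A list near these shares is not set apart by its calls.

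The same genes were then read in the R1881 arrays, which do not enter the log2 changes in vehicle. The filter, the probe set choice and the estimate of the spread used all 12 arrays. The calls in the 2 treatments are therefore not independent. In R1881 limma called 59% of genes, 6.71% at least 2-fold higher and 4.9% at least 2-fold lower (11.6% together), and 66.6% of genes had groups that did not overlap. Of the 523 genes at least 2-fold higher in vehicle, 497 (95%) had the same sign in R1881 and 435 were called there in the same direction, against 9 in the opposite one. Over all 10265 genes 77.3% had the same sign, and 33.6% were called higher and 25.4% lower in R1881. Of the 430 at least 2-fold lower, 399 (92.8%) had the same sign, 369 were called the same way and 11 the opposite way. Across all 10265 genes the changes in vehicle and R1881 had a Pearson correlation of 0.705 and a Spearman correlation of 0.719, as a description over genes, which are not independent. The effect of silencing differed between the treatments for 23.8% of genes (13.2% higher and 10.5% lower in R1881 than in vehicle), and by at least 2-fold for 5.01% (2.59% and 2.42%).

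**Figure D1:**
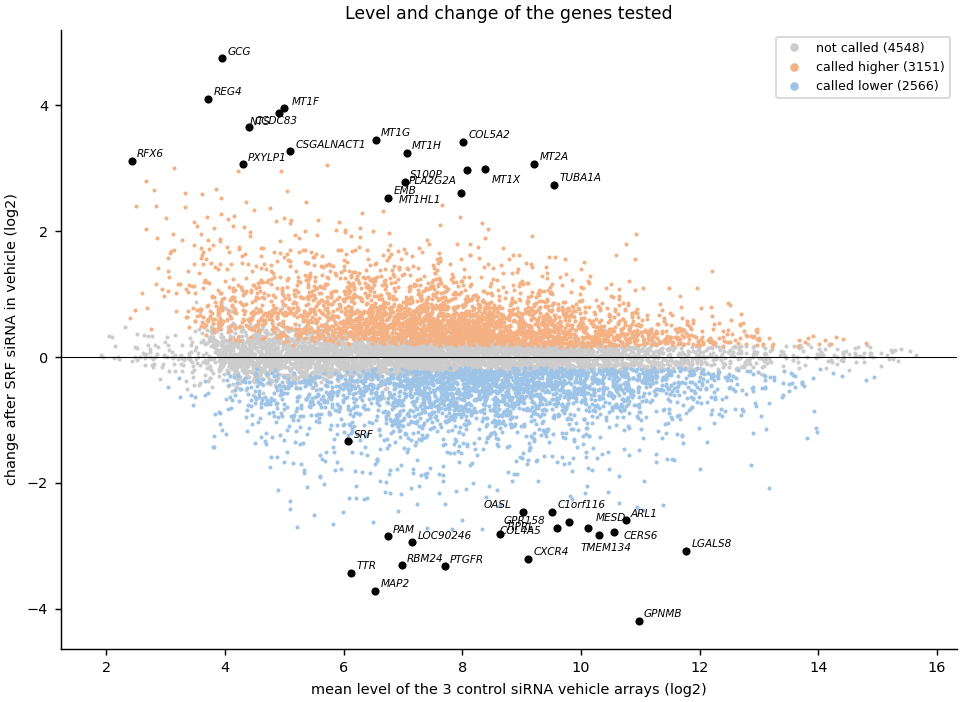
Change after SRF siRNA in vehicle (y axis, log2) against the mean level of the 3 control siRNA vehicle arrays (x axis, log2) for the 10265 genes tested, coloured by call, with the largest changes and SRF in black. GCG is the highest and GPNMB the lowest point, and many of the largest rises start from control levels near or under 5.

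The metallothioneins rose together. They are small cysteine-rich proteins that bind zinc and copper, and their genes respond to metal through MTF1, which binds metal response elements (MREs). Of the 13 genes listed, 7 were tested. All 7 were higher, at least 2-fold, against 30.7% of all genes called higher and 5.09% called at least 2-fold higher. Their median change was 3.07, beside 0.04 for all genes. The promoters of the 3 of them that are in the promoter table are shown because all 3 hold several MRE cores (TGCACNC or TGCGCNC, either strand, in capitals) in the 250 bases before the start, on the plus strand of chromosome 16 of GRCh38.p14 from RefSeq.
MT2A chr16:56608334-56608583: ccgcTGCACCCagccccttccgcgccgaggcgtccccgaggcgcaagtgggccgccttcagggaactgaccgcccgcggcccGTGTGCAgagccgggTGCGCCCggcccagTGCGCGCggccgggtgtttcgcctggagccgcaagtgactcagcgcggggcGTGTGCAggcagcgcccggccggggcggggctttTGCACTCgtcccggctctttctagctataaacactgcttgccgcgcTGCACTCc
MT1H chr16:56669564-56669813: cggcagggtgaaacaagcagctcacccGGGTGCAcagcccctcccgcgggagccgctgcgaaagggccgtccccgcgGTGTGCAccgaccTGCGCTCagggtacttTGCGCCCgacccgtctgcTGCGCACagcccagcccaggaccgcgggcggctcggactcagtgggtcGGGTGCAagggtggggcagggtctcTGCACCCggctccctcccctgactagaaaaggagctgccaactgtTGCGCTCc
MT1X chr16:56682220-56682469: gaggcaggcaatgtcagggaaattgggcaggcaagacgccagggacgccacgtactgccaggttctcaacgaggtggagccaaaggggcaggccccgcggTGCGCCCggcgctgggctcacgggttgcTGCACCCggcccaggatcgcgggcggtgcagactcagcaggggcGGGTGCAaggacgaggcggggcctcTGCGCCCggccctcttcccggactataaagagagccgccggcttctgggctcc
MT2A holds 7, MT1H 8 and MT1X 4 matches. An MRE core lay in 24.72% of the 27305 promoter windows, and 4 or more in 0.37% of them. Among genes tested that have a window these shares were 34.26% and 0.55%. Among those called higher they were 35.77% and 0.68%.

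MT2A, the most highly expressed member in many tissues, stood at 9.21, 9.21 and 9.19 with control siRNA and at 12.40, 12.36 and 12.08 with SRF siRNA. MT1X stood at 8.30, 8.36 and 8.46 against 11.49, 11.38 and 11.22. MT1F stood at 5.17, 4.92 and 4.91 against 9.11, 8.89 and 8.86. In each the silenced arrays lay far above all control arrays, by 8.41-fold for MT2A, 7.93-fold for MT1X and 15.5-fold for MT1F (limma adjusted p = 1.50e-09, 1.50e-09 and 3.88e-09). MT1G changed by 3.45 ± 0.20, MT1H by 3.24 ± 0.15, MT1HL1 by 2.61 ± 0.12 and MT1E by 1.30 ± 0.16 (SE). In R1881 the 7 genes were again higher, with a median of 3.59. MT1M, MT3 and MT4 lay under the filter. All passing probe sets of the family are of a type whose probes also match other family members, so the 7 genes are not separate measurements. With that type of probe set left out, none of the 7 could be tested. MT1G has a further probe set that is not of that type. It lay under the filter, at 2.46 to 2.65 on the vehicle arrays, with a change of 0.07. The rise given for MT1G therefore rests on the shared type alone.

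Other genes of zinc handling moved both ways, with 5 of 18 higher (27.8%) and 6 lower (33.3%) and a median of -0.004. Among all genes 30.7% were higher and 25% lower. The metal-sensing factor MTF1 rose from 6.62, 6.40 and 6.83 to 8.07, 7.89 and 8.04, a change of 1.39 ± 0.14, and the zinc exporter gene SLC30A1 rose by 0.91 ± 0.07. The zinc importer genes SLC39A10 and SLC39A6 fell by 1.52 ± 0.11 and 0.93 ± 0.07 (SE). Without control siRNA replicate 3 in vehicle, the count lower was 3.

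The largest rises outside the metallothioneins were in genes of secreted peptides. GCG, which encodes the glucagon precursor, stood at 4.71, 3.28 and 3.83 with control siRNA and at 8.47, 8.60 and 8.99 with SRF siRNA, a change of 4.74 ± 0.27. REG4, a secreted lectin of the gut, stood at 3.67, 3.72 and 3.75 against 7.63, 8.05 and 7.76, a change of 4.10 ± 0.13. NTS, the neurotensin gene, stood at 5.15, 5.18 and 4.38 against 8.77, 8.76 and 8.82, a change of 3.88 ± 0.16 (SE). The groups were several units apart in all 3 genes, and the control levels lay near the filter, where the size of a fold depends on the background estimate. Together with the trefoil factor gene TFF1 (2.63 ± 0.24) and PCSK1N (0.46), 5 of the 6 gut and endocrine peptide genes tested were higher and none lower. Only 6 of the 28 genes on that list passed the filter on low values, GCG and REG4 only through the silenced vehicle arrays, so the count is no support for the list. RFX6, a transcription factor of pancreatic endocrine cells, rose by 3.12 ± 0.16 from a control mean of 2.42. In R1881, GCG and NTS were near 2.3 and 2.5 with either siRNA, and REG4 changed by 1.03. TFF1 went the other way, with a larger rise of 5.34 in R1881, and the difference between the treatments passed the test (2.71 ± 0.35).

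**Figure D2:**
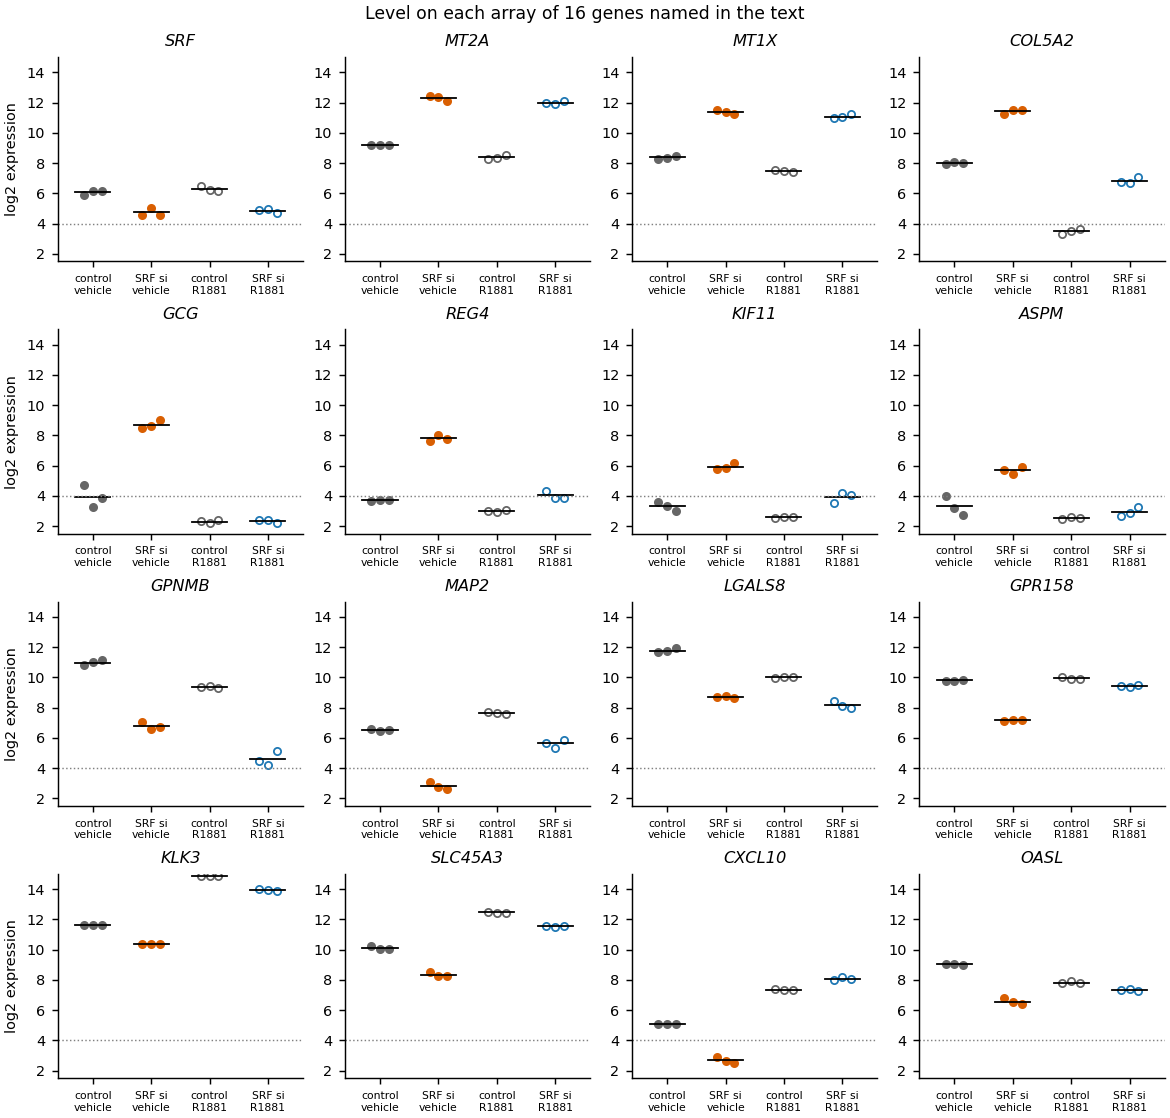
Log2 level (y axis) of 16 genes on each of the 12 arrays, by siRNA and treatment, with a line at each group's mean and a dotted line at the filter value of 4. In vehicle (filled points) the SRF siRNA arrays lie apart from the control arrays in every panel, while in R1881 (open points) GCG stays near 2.3 with both siRNAs.

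Among genes well above background in both vehicle groups (both means over 6), the largest rise outside the metallothioneins was in COL5A2, a chain of type V collagen. It stood at 7.96, 8.06 and 8.01 with control siRNA and at 11.26, 11.52 and 11.49 with SRF siRNA, a change of 3.42 ± 0.12 or 10.7-fold (limma adjusted p = 1.81e-09). PLA2G2A, a secreted phospholipase, rose by 2.98 ± 0.24, the calcium-binding protein gene S100P by 2.78 ± 0.13, the alpha-tubulin gene TUBA1A by 2.73 ± 0.09 and EMB, which encodes embigin, by 2.53 ± 0.11. TUBA1A stood within 9.54 to 9.55 on the control arrays and at 12.38, 12.26 and 12.19 on the silenced ones. All 5 of these genes were also higher in R1881, by 1.92 to 3.96. CSGALNACT1 (3.26 ± 0.21) and PXYLP1 (3.06 ± 0.28), both enzymes of proteoglycan sugar chains, and CCDC83 (3.65 ± 0.20) were further large rises from control means under 6. ACP3, the gene of prostatic acid phosphatase, rose from 10.91, 10.89 and 10.98 to 12.96, 12.86 and 12.83.

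The deepest fall was in GPNMB, a transmembrane glycoprotein of lysosomes and melanosomes. It stood at 10.79, 10.99 and 11.13 with control siRNA and at 7.03, 6.60 and 6.72 with SRF siRNA, which left 5.50% of the control signal (change -4.19 ± 0.20). MAP2, a microtubule-associated protein of neurons, fell from 6.56, 6.48 and 6.54 to 3.09, 2.75 and 2.60. LGALS8, which encodes galectin-8, fell from 11.67, 11.73 and 11.91 to 8.71, 8.75 and 8.63, and its 5 other passing probe sets were called lower too. The remaining largest falls were in TTR, the thyroid hormone carrier transthyretin (-3.43 ± 0.13), the prostaglandin F receptor gene PTGFR (-3.32 ± 0.20), the RNA-binding protein gene RBM24 (-3.31 ± 0.11), the chemokine receptor gene CXCR4 (-3.20 ± 0.13), LOC90246 (-2.94 ± 0.16), PAM, the enzyme that amidates peptides (-2.85 ± 0.19), TMEM134 (-2.82 ± 0.09) and TIPRL (-2.80 ± 0.23). All of these but TTR were also called lower in R1881.

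Some of the falls were of abundant transcripts. The ceramide synthase gene CERS6 fell by 2.77 ± 0.11, MESD, a chaperone of LRP receptors, by 2.72 ± 0.10, the basement membrane collagen gene COL4A5 by 2.72 ± 0.12 and the Golgi GTPase gene ARL1 by 2.59 ± 0.11 (SE). GPR158, an orphan receptor, had the smallest p among genes that changed in the same direction in R1881, at 9.77, 9.77 and 9.84 with control siRNA and 7.13, 7.21 and 7.19 with SRF siRNA (change -2.62 ± 0.07, limma adjusted p = 5.59e-10). In R1881 it changed by -0.54, and the difference between the treatments passed the test (2.08 ± 0.10). LTAP1 fell from 13.08, 13.21 and 13.22 to 11.17, 11.05 and 11.04, and SYT4, a synaptotagmin, from 10.52, 10.47 and 10.42 to 8.70, 8.72 and 8.66. Both kept their fall in R1881, at -1.85 and -2.11.

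The gene groups through which SRF is best known did not move as one. Of 9 SRF cofactors and partners tested, 2 were higher and 4 lower, with a median of -0.20. MRTFB, a coactivator of SRF, fell from 9.39, 9.29 and 9.24 to 8.44, 8.21 and 8.46, while MRTFA stood at a change of 0.17 ± 0.18 that did not pass. The ternary-complex factor ELK4 rose by 0.80 ± 0.07, although its probe set of largest variance gave 0.21 and no call, and CSRP1, a partner of SRF in smooth muscle, by 0.64 ± 0.06. In R1881 ELK4 was higher again, at 0.47, but CSRP1 was lower, at -0.35. In vehicle SCAI, ELK3 and FLII were lower by less than MRTFB, at -0.73 ± 0.24, -0.35 ± 0.12 and -0.26 ± 0.09. These 3 calls were weak: the count lower was 2 without any 1 of the control arrays in vehicle or without silenced replicate 3, and 1 without silenced replicate 1.

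Actins and contractile genes split evenly in vehicle, 4 of 13 higher and 4 lower (30.8% each, beside 30.7% and 25% of all genes), with a median of -0.04. In R1881 3 of the 13 were higher and 9 lower, with a median of -0.41, beside 33.6% and 25.4% of all genes. MYLK, the myosin light chain kinase, rose from 6.71, 6.45 and 5.74 to 8.48, 8.56 and 8.72, a change of 2.29 ± 0.21. SMTN (0.79), TAGLN2 (0.60) and TPM4 (0.58), which bind actin filaments, were also higher. In R1881 SMTN and TAGLN2 were higher again, at 0.52 and 1.14, but TPM4 was lower, at -0.39. CALD1, caldesmon, fell from 13.84, 13.86 and 13.75 to 12.48, 12.48 and 12.62, and its 6 other passing probe sets were called lower too. The nonmuscle myosin gene MYH10 fell by 0.51 ± 0.09. ACTB, the cytoplasmic beta actin, was at -0.36 ± 0.11 with overlapping groups, and MYH9 at -0.23 ± 0.07. Both lost their call without control replicate 2 or silenced replicate 3 in vehicle, which left 2 lower, as did the GAPDH covariate. Without control replicate 3 ACTB lost its call as well. The smooth muscle actin gene ACTA2 stood at 5.57, 5.43 and 5.70 against 5.44, 5.56 and 5.61, a change of -0.03 ± 0.09 in vehicle, against -2.79 in R1881, and that difference passed the test (-2.77 ± 0.13).

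Genes of actin assembly and adhesion held single large changes. In actin assembly 6 of 32 were higher and 9 lower, with the formin gene DIAPH3 at 1.19 ± 0.22, the cofilin phosphatase gene SSH1 at 1.04 ± 0.11, ACTR3 of the Arp2/3 complex at -1.05 ± 0.06 (not called for its probe set of largest variance) and PDLIM5 at -0.95 ± 0.07. Adding the GAPDH covariate left 5 lower. The integrin gene ITGAV fell from 11.08, 11.08 and 10.99 to 9.14, 8.91 and 9.21, and the focal adhesion protein genes LPP and TLN1 fell by 1.63 ± 0.09 and 0.94 ± 0.12. The mean of all TLN1 probe sets gave -0.23 and no call. FERMT2, which activates integrins, rose by 0.96 ± 0.20. Of the 20 integrin and focal adhesion genes 5 were higher and 7 lower. Their count higher was 3 without control replicate 3 or silenced replicate 2 in vehicle or without any 1 of the control R1881 arrays, and with the GAPDH covariate the counts were 2 and 4. The Hippo effector YAP1 fell by 2.04 ± 0.08 with groups that did not overlap, and AMOTL2 rose by 1.34 ± 0.16, but 8 of the 12 genes of that list were not called.

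Immediate-early and ternary-complex targets were more often higher than lower, 11 against 3 of 23, with SRF itself among the 3. DUSP5, a phosphatase that restrains ERK, changed by 2.03 ± 0.20 from a control mean under the filter value. KLF4 rose by 1.27 ± 0.16, FOSL2 by 0.95 ± 0.09, MYC by 0.69 ± 0.09 and KLF6 by 0.68 ± 0.09, all transcription factors induced by growth signals. SPRY4, an inhibitor of the same pathway, was at 1.05 ± 0.17, but its control level was near 3, and with values under 4 set to 4 it lost its call. SPRY4 passed the filter only through the silenced vehicle arrays, and without it 10 of the list were higher. ATF3 fell by 0.84 ± 0.12. Of the 78 tested genes with an exact CArG match in the 250 bases before the start, 18 were lower (23.1%) and 23 higher (29.5%). Among all genes tested 25% were lower and 30.7% higher. Inexact boxes and boxes elsewhere were not searched. Among the contractile genes MYLK and TPM4 had 1 match each, and ACTA2 and CALD1 had none. These counts therefore cannot separate genes bound by SRF from others.

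**Figure D3:**
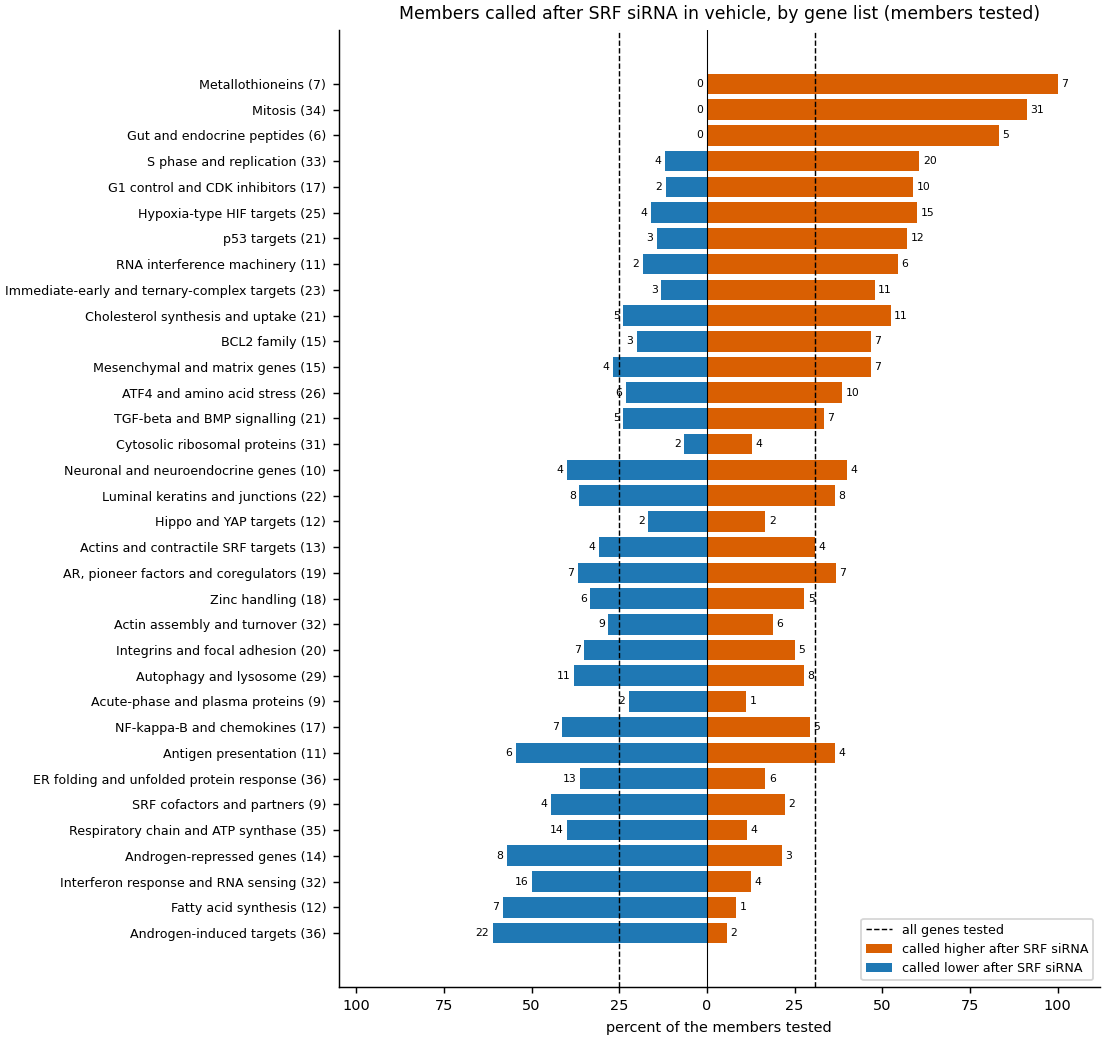
Percent of the tested members of each of 34 gene lists (number tested in brackets) that were called higher (right) or lower (left) after SRF siRNA in vehicle, with the counts at the bar ends. Dashed lines mark 30.7% higher and 25% lower among all genes tested; metallothioneins and mitosis genes stand farthest to the right and androgen-induced targets farthest to the left. Of the 34 mitosis genes 10 passed the filter only through the silenced vehicle arrays.

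Most mitosis genes rose. Of 34 tested, 31 were higher, 29 of them at least 2-fold, and none was lower, with a median of 1.62. Among all genes 30.7% were higher and 5.09% at least 2-fold higher. Of the 34, 10 passed the filter on low values only through the silenced vehicle arrays, where they were high, KIF11, ASPM and KIF2C among them. Without these 10, 22 of the others were higher. The 29 genes at least 2-fold higher and the median of 1.62 keep these 10, so they are no support for the list. KIF11, the kinesin that separates spindle poles, stood at 3.60, 3.34 and 3.01 with control siRNA and at 5.76, 5.84 and 6.19 with SRF siRNA. ASPM, a spindle pole protein, changed by 2.38 ± 0.25, and the kinetochore gene CENPF stood at 5.40, 4.70 and 4.19 against 6.95, 7.25 and 7.21. The control levels of these 3 genes were low and the silenced arrays lay above all of them. KIF2C, a microtubule-depolymerizing kinesin, changed by 2.24 ± 0.31.

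Members of the list at higher levels moved the same way. TOP2A, the topoisomerase of dividing cells, rose from 6.14, 5.79 and 5.69 to 7.85, 7.81 and 8.03, CCNB1, cyclin B1, rose by 1.09 ± 0.11, and CDK1, the kinase that cyclin B activates, rose from 9.40, 9.35 and 9.27 to 10.31, 10.14 and 10.23. CCNA2 (-0.05), KIF23 (0.22) and ECT2 (0.26) were the 3 members not called. CDC25C was called at 0.50 ± 0.18 with overlapping groups. In R1881, 27 of the 34 were higher, beside 33.6% of all genes, and 26 of the 27 were also higher in vehicle. The control R1881 levels were lower still, for example 3.32 for TOP2A.

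S phase and G1 genes rose less and less uniformly. Of 33 S phase and replication genes 20 were higher and 4 lower, with a median of 0.51. UHRF1, which maintains DNA methylation at replication, rose from 6.32, 5.94 and 6.12 to 7.93, 8.03 and 8.20. E2F8 changed by 1.66 ± 0.19, MCM10 by 1.20 ± 0.29 and RRM2, a subunit of ribonucleotide reductase, by 1.22 ± 0.25. E2F8 and MCM10, with control means of 3.63 and 3.70, passed the filter on low values only through the silenced vehicle arrays. Without them 18 of the list were higher. Adding the GAPDH covariate left 13 higher and 2 lower. The count lower was also 2 without control replicate 1 or silenced replicate 2 in vehicle or without any 1 of the control R1881 arrays.

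G1 genes included CDK inhibitors that moved in opposite directions. Of 17 G1 genes 10 were higher and 2 lower. CDKN1A, the inhibitor p21, rose from 10.28, 10.19 and 9.97 to 11.32, 11.44 and 11.53 (1.28 ± 0.10), CDK4 rose by 0.91 ± 0.06, SKP2, which targets CDK inhibitors for degradation, by 0.74 ± 0.10, and CDKN2B fell by 1.17 ± 0.18. Under the GAPDH covariate 5 of them were higher. Of 21 p53 targets, a list that also holds CDKN1A, 12 were higher and 3 lower, with BAX at 1.12 ± 0.15, ZMAT3 at 1.08 ± 0.11 and FAS at -1.13 ± 0.11. Of 15 BCL2 family genes 7 were higher and 3 lower. BID, which links death receptors to mitochondria, rose from 6.63, 6.80 and 6.65 to 7.91, 8.06 and 7.76, and BIK by 0.84, while BMF (0.74) lost its call without control replicates 2 or 3 or silenced replicates 2 or 3 in vehicle, and without several single R1881 arrays.

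**Figure D4:**
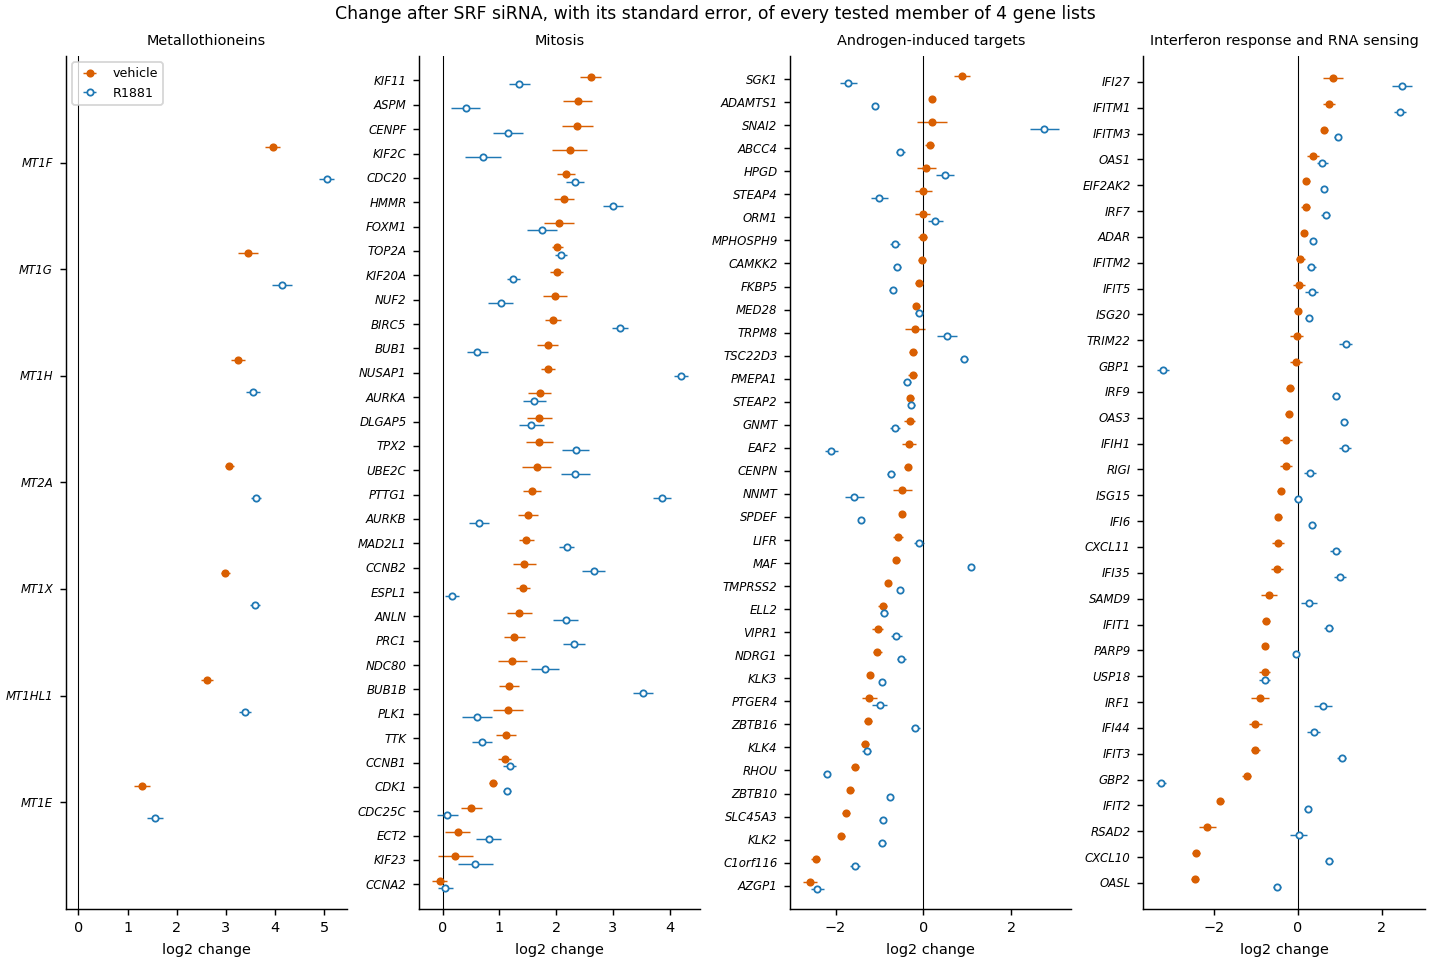
Log2 change after SRF siRNA (x axis, with its standard error) of every tested member of the metallothionein, mitosis, androgen-induced and interferon lists, in vehicle (filled) and in R1881 (open). In vehicle the 7 metallothioneins and 31 of 34 mitosis genes are called higher and 22 of 36 androgen-induced targets and 16 of 32 interferon genes lower, and in R1881 most interferon genes lie to the right of 0. Of the 34 mitosis genes 10 passed the filter only through the silenced vehicle arrays.

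Many androgen-induced targets fell although no androgen had been added. Of 36 tested, 22 were lower and 2 higher (25% and 30.7% of all genes), with a median of -0.42. At least 2-fold lower were 12, beside 4.19% of all genes. KLK3, the gene of prostate-specific antigen, stood at 11.63, 11.61 and 11.61 with control siRNA and at 10.39, 10.40 and 10.40 with SRF siRNA, which left 43.0%. KLK2 stood at 7.71, 7.73 and 7.59 against 5.73, 5.69 and 5.99. SLC45A3, the gene of prostein, stood at 10.22, 10.07 and 10.07 against 8.56, 8.24 and 8.27. The groups were clear of each other in all 3 genes, and AZGP1, a zinc-binding secreted glycoprotein, fell further, from 8.12, 7.92 and 7.97 to 5.83, 5.05 and 5.37. C1orf116 fell by 2.45 ± 0.11 and KLK4 by 1.33 ± 0.10.

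The fall of the androgen targets was not shared by all of them. FKBP5, a strongly androgen-induced chaperone, was at -0.10 ± 0.08 and STEAP4 at -0.01, neither called. SGK1, a kinase induced by steroid hormones, was higher at 0.88 ± 0.19, and ADAMTS1 was called higher at 0.20. Without control replicate 1 or silenced replicates 2 or 3 in vehicle, or with the GAPDH covariate, the count higher was 1. The receptor gene itself was not analysed here. Of 19 pioneer factors and coregulators 7 were higher and 7 lower, with the coactivator gene NCOA2 at -0.94 ± 0.10, the demethylase gene KDM1A at 0.92 ± 0.11, the corepressor gene TLE1 at 0.88 ± 0.08 and HOXB13 at 0.78 ± 0.08.

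The list of androgen-repressed genes did not mirror that of the induced ones, with 8 of 14 lower and 3 higher. UGT2B17, which conjugates androgens for excretion, fell from 11.14, 11.41 and 11.58 to 9.02, 8.98 and 9.10. TFPI, an inhibitor of coagulation, fell by 1.29 ± 0.07. CAMK2N1, an inhibitor of CaM kinase, rose by 1.80 ± 0.11, and UGT2B28 rose by 1.17 ± 0.10. Not all of these members were lower in R1881 than in vehicle with control siRNA. UGT2B28 stood at means of 6.36 in vehicle and 11.24 in R1881, and TFPI at 11.37 and 11.28. UGT2B17 (11.38 and 6.64) and CAMK2N1 (10.76 and 4.3) were lower in R1881. With the GAPDH covariate 5 were lower. ACKR3 (-0.33 ± 0.12) was called lower, but not without control replicates 1 or 2 or silenced replicates 1 or 2 in vehicle. Luminal keratins and junction genes split evenly, 8 higher and 8 lower of 22, none of them at least 2-fold, with KRT8 at -0.48 ± 0.08 and the tight junction gene CLDN7 at 0.76.

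Interferon response and RNA-sensing genes were more often lower than higher in vehicle. Of 32 tested, 16 were lower and 4 higher, with a median of -0.35. OASL, a relative of the antiviral 2-5A synthetases, stood at 9.08, 9.03 and 8.97 with control siRNA and at 6.77, 6.52 and 6.41 with SRF siRNA. IFIT2, which binds foreign RNA, stood at 9.01, 8.80 and 8.82 against 6.91, 7.08 and 7.09. The chemokine gene CXCL10 stood at 5.09, 5.10 and 5.12 against 2.91, 2.63 and 2.52, and RSAD2, viperin, fell by 2.16 ± 0.20. The silenced arrays were below all control arrays in each. IFI27 (0.82) and IFITM1 (0.74) were among the 4 higher, a count of 1 with the GAPDH covariate.

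In R1881 the same list went the other way, with 22 of 32 higher and 4 lower (33.6% and 25.4% of all genes). The effect of silencing differed between the treatments for 24 of the 32 genes, against 23.8% of all genes, and 9 genes lower in vehicle were higher in R1881. For OASL the difference was 1.96 ± 0.13, for IFIT2 2.08 ± 0.12 and for CXCL10 3.15 ± 0.14 (SE). Antigen presentation genes were 4 higher and 6 lower of 11, with the peptide transporter gene TAP2 at 1.19 ± 0.19, the HLA genes HLA-B, HLA-C, HLA-F and HLA-G between -0.48 and -0.20, and B2M at -0.60. HLA genes share sequence, so their probe sets may not be separate measurements. With probe sets that match several family members left out, 2 of this list were lower, and with the GAPDH covariate 1 was higher.

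Inflammatory genes under NF-kappa-B were 5 higher and 7 lower of 17. CXCR4, the receptor of CXCL12, fell from 9.29, 8.94 and 9.10 to 5.77, 5.76 and 6.21, and its 2 other passing probe sets were also called lower. SOD2 fell by 1.51 ± 0.31, TNFAIP3 by 1.25, and IL1RN, the interleukin-1 receptor antagonist, rose by 1.17. The subunit genes NFKB1 (0.83), REL (0.72) and RELA (0.66) were higher. With the GAPDH covariate 3 were higher and 2 lower, and SOD2 and TNFAIP3 lost their calls. TNFAIP3 also lost its call with values under 4 set to 4.

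Cholesterol and fatty acid genes are given side by side, with no test between the lists. Of 21 cholesterol synthesis and uptake genes 11 were higher and 5 lower. STARD4, a cholesterol carrier, rose from 5.88, 5.58 and 5.78 to 7.21, 7.35 and 7.13, INSIG1 by 1.01 ± 0.08, the transcription factor gene SREBF2 by 0.92 ± 0.08 and INSIG2 by 0.80 ± 0.07. The lower ones were SC5D (-0.68), HMGCS1 (-0.64), TM7SF2 (-0.52), SQLE (-0.51) and MSMO1 (-0.29). Adding the GAPDH covariate left 6 higher. In R1881 4 of the 21 were higher and 7 lower, beside 33.6% and 25.4% of all genes. Of 12 fatty acid genes 7 were lower and 1 higher. ELOVL5, an elongase, fell from 12.41, 12.46 and 12.44 to 11.55, 11.55 and 11.66 (neither of its other passing probe sets was called), ELOVL6 by 0.97 ± 0.13 and ACACA, the acetyl-CoA carboxylase, by 0.83 ± 0.11, while the desaturase gene FADS2 rose by 0.83 ± 0.14. All 7 of the lower genes were also lower in R1881.

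Protein folding and amino acid stress genes moved in part. Of 36 genes of ER folding and the unfolded protein response 13 were lower and 6 higher. DNAJC3, a co-chaperone that inhibits PERK, fell from 9.29, 9.24 and 9.21 to 7.60, 7.58 and 7.57, and the sensor gene ERN1 fell by 1.02 ± 0.11. HSPA5, the main ER chaperone, was higher at 0.42. In R1881, 27 of these 36 genes were lower, beside 25.4% of all genes. Of 26 ATF4 and amino acid genes 10 were higher and 6 lower. The cystine transporter gene SLC7A11 fell by 1.39 ± 0.11, and SLC7A5, a carrier of large amino acids, changed by 1.65 ± 0.25 from a control mean near 3. SLC7A5 passed the filter only through the silenced vehicle arrays, and without it 9 of the list were higher. With the GAPDH covariate 6 were higher.

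Of 25 hypoxia-type targets 15 were higher and 4 lower, none of the 15 at least 2-fold. The carbonic anhydrase gene CA12 (0.96), the oxygen sensor gene EGLN1 (0.89) and PDK1, which holds back pyruvate oxidation (0.83), led, while NDRG1 fell from 8.59, 8.65 and 8.80 to 7.67, 7.57 and 7.65. Under the GAPDH covariate 7 were higher. Respiratory chain and ATP synthase genes were lower in 14 of 35 and higher in 4, all by less than 2-fold, led by NDUFB8 at -0.54 and COX7C at -0.47. Their count lower was 9 without control replicate 2 or silenced replicate 3 in vehicle, and their count higher 2 without control replicate 1 or silenced replicate 1. With that covariate for RNA integrity the counts were also 9 and 2. Of 31 cytosolic ribosomal protein genes 25 were not called, 4 were higher (RPS19 at 0.33 the most) and 2 lower, RPS6 (-0.31) and RPLP2 (-1.24). RPLP2 lost its call with the GAPDH covariate. The count higher was 2 without control replicate 1 or silenced replicates 1 or 2 in vehicle, and 7 without control replicate 2.

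Matrix, neuronal and growth factor genes held further large single changes. Of 15 mesenchymal and matrix genes 7 were higher and 4 lower, with TIMP2, a metalloproteinase inhibitor, rising from 8.29, 8.16 and 8.41 to 9.73, 9.81 and 10.02. COL3A1 rose by 1.47 ± 0.18, MMP16 by 1.18 ± 0.18 and VIM by 0.98. COL1A1 was at -0.14 and not called, but its probe sets disagreed, with 1.15 for the one of largest variance. The summed level of the 12 fibroblast markers was 194 to 227 in control and 323 to 380 in silenced arrays on the linear scale, and COL3A1, which is also on this list, was one of the 2 above the filter. Of 28 neuronal and neuroendocrine genes 10 were tested, with 4 higher and 4 lower. The neurotrophin gene BDNF, which passed the filter only through the silenced vehicle arrays, stood at 2.40, 2.52 and 2.59 against 4.85, 4.99 and 4.88, ENO2 was at 1.64 ± 0.20 and NEFL, a neurofilament, at -1.32 ± 0.15. The plasma carrier gene APOD, a lipocalin, fell from 7.25, 7.08 and 7.35 to 5.08, 5.13 and 4.47. The serpin gene SERPINB5 changed by 1.77 ± 0.18 from a control mean of 3.47, and passed the filter only through the silenced vehicle arrays. Of 21 TGF-beta and BMP genes 7 were higher and 5 lower (1 lower with the GAPDH covariate), 33.3% and 23.8% beside 30.7% and 25% of all genes. The receptor gene TGFBR1 was at 1.29 ± 0.10 and ID1 at 0.72 ± 0.13.

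Lysosomal and RNA interference genes showed opposite changes within one list. HEXA, a lysosomal hexosaminidase, fell from 8.80, 9.06 and 8.86 to 7.36, 7.33 and 7.07, and the lysosomal peptidase gene TPP1 rose by 1.56 ± 0.07. Of 29 autophagy and lysosome genes 8 were higher and 11 lower (27.6% and 37.9%, beside 30.7% and 25% of all genes). The count higher was 5 without control replicate 1 or silenced replicate 3 in vehicle or with the GAPDH covariate. The direction of LAMP2 depends on its probe set, at -1.07 here and 2.18 for the probe set of largest variance. Of 11 genes of the RNA interference machinery, which the siRNA itself uses, 6 were higher and 2 lower, with DROSHA at 1.16 ± 0.08, TNRC6B at -1.16 ± 0.08 and AGO3 at -0.37. Without control replicates 1 or 2 or silenced replicates 1 or 3 in vehicle, or with the GAPDH covariate, 1 was lower. All 8 were called in the same direction in R1881.

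**Figure D5:**
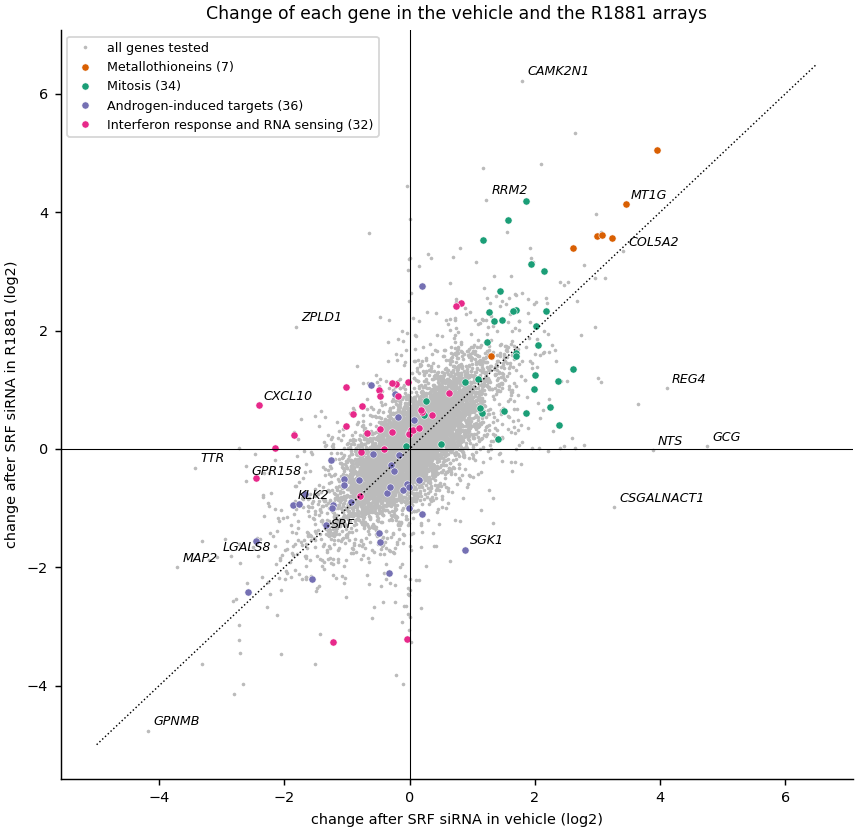
Log2 change of the 10265 genes after SRF siRNA in vehicle (x axis) and in R1881 (y axis), from arrays that the 2 comparisons do not share, with 4 gene lists coloured and the line of equal change dotted. Metallothioneins lie at or above the line, GCG and NTS lie near 0 in R1881, and CXCL10 and ZPLD1 are lower in vehicle and higher in R1881.

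Where a called gene had further passing probe sets, 87.6% of those 5005 probe sets changed in the same direction, and for the 456 genes changed at least 2-fold 93.9% of 814 did. Among genes named above, no other passing probe set was called in the same direction for MT1E, FLII, TLN1, ADAMTS1, HOXB13, ACKR3, HLA-F, RELA, SC5D, HMGCS1, ELOVL5, PDK1, NEFL and AGO3, each of which had at least 1. The number of arrays, 3 in each group, limits the precision of each value.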

How the data were processed

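The deposited table holds 1 value per probe set and array, log2 signals that the authors made with GCRMA, per the submitters' processing notes; its version, the array type and the annotation build are not given in the sources used here. Biotin-labelled cRNA was made from 3.5 ug of total RNA, per the labels' protocols. Of 54675 probe sets, 62 were controls, 41091 carried 1 symbol in the platform annotation, 1801 several and 11721 none. Of those with 1 symbol, 41037 matched a current RefSeq gene number. The filter left 18676 probe sets of 10265 genes.

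A means model of the 4 groups, with all 12 arrays sharing 1 estimate of the spread, was fitted with limma 3.58.1 in R 4.3.3, with Benjamini-Hochberg adjustment over all genes tested. The fit was tested on simulated data. Motifs were searched on both strands of the 250 bases before each start in the RefSeq table of GRCh38.p14, which held 8514 of the genes tested. Figures were drawn with matplotlib.

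The members, the 35 gene lists and 5 marker lists were chosen with earlier results of these data known, and lists are described by counts, with no test of a set; 1 list is not reported here. Genes were named by a rule: SRF, in each direction the 12 called genes that changed most and the 10 that did so with both vehicle means above 6, all with groups that do not overlap, up to 4 called members of each list (8 for metallothioneins and SRF-linked lists) and those that show how a list splits, and the 10 genes with the smallest p and the 10 with the largest opposite effect in R1881. Further list members were named after their values were seen. Alternatives changed the filter, floor, probe set, normalization, variance model, arrays, block and thresholds, and left out each array. A fit with the GAPDH measure as a covariate was chosen after seeing the data.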

Additional observations from a re-analysis of the deposited data

Results flagged for a closer look

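Of the 181 genes named by rule, 105 had an effect of silencing that differed between R1881 and vehicle by limma's test of the difference, and 57 of these differed by at least 2-fold. The rule chose some of these genes for an opposite or extreme effect, so the counts support nothing about all genes. Each value that follows is the log2 effect of SRF siRNA in R1881 minus that in vehicle.

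In 25 genes the effect was lower in R1881, among them the secreted peptide genes GCG (-4.70), NTS (-3.90) and REG4 (-3.07), but not TFF1, given below. Also lower in R1881 were CSGALNACT1 (-4.25), CCDC83 (-2.89), SGK1 (-2.58), IGFBP3 (-2.58), NCAPD3 (-2.54), BDNF (-2.39), RHOBTB3 (-2.17), MYLK (-1.99), ASPM (-1.98), PXYLP1 (-1.93), STARD4 (-1.69), CDC42EP3 (-1.68), KIF2C (-1.52), UGT2B28 (-1.39), TIPRL (-1.34), FADS2 (-1.28), KIF11 (-1.26), CENPF (-1.23), SLC7A5 (-1.18), INSIG1 (-1.11), AMOTL2 (-1.09) and INSIG2 (-1.05).

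In 32 genes the effect was higher in R1881. They include the interferon-related genes OASL (1.96), IFIT2 (2.08), RSAD2 (2.17) and CXCL10 (3.15), and further IL1RN (1.01), PAM (1.03), MT1F (1.10), COL4A5 (1.12), KRT19 (1.21), LGALS8 (1.25), CXCR4 (1.33), LOC90246 (1.43), UHRF1 (1.47), ID1 (1.49), UGT2B17 (1.52), TAP2 (1.54), APOD (1.56), CDKN2B (1.61), MAP2 (1.71), RBM24 (1.75), SOD2 (2.07), GPR158 (2.08), IRS2 (2.24), SDC2 (2.25), ACKR3 (2.52), MYC (2.54), TFF1 (2.71), RRM2 (2.99), TTR (3.11), MMP16 (3.57), ZPLD1 (3.88) and CAMK2N1 (4.42).

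Some genes were called in opposite directions. ZPLD1 changed by -1.82 in vehicle and 2.06 in R1881, CSGALNACT1 by 3.26 and -0.99, IGFBP3, which binds insulin-like growth factors, by 1.34 and -1.25, NCAPD3 of the condensin II complex by 0.64 and -1.90, and SGK1 by 0.88 and -1.71.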

How the results depend on the processing

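Without any 1 array, 5112 to 5790 genes were called in vehicle (2832 to 3184 higher, 2280 to 2606 lower), 5502 to 6106 in R1881 (3036 to 3493 and 2334 to 2636) and 2023 to 2338 for the difference (1094 to 1417 and 894 to 1116), and SRF changed by -1.50 to -1.25. Requiring at least 2-fold left 953 in vehicle (523 and 430), 1192 in R1881 (689 and 503) and 514 for the difference (266 and 248). An adjusted p under 0.01 left 1367 for the difference (740 and 627). The GAPDH covariate left 1893 higher and 2039 lower in vehicle. In R1881 it left 6047 genes called, beside 6058 without it. LAMP2 turned from -1.07 to 2.18 with the probe set of largest variance and to 0.06 with the mean of its probe sets. Of 3263 values of 194 named genes under the alternatives, 136 lost their call, 3 gained one and 2 reversed. Of 2328 without 1 array, 40 lost it. Same-numbered control and silenced vehicle arrays correlated in their deviations at -0.214, 0.001 and -0.191, and differently numbered ones at -0.029 to 0.207. These values show no pairing by number, but with 3 arrays in each group they cannot exclude one. With the replicate block 5585 genes were called in vehicle, and with the block on the 6 vehicle arrays alone 4728. The cause of these changes was not tested. The number of arrays and the signal near background limit the low genes.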

Other observations

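Gene families outside the lists above were picked after their values were seen, so they are described without a test. Among all genes tested 30.7% were higher and 25% lower in vehicle. Histone genes were mostly lower in vehicle, 13 of 20, with 1 higher and a median of -0.60, led by H2BC12L (-1.23), and 11 were lower in R1881 too. Histone genes share sequence, so their probe sets may not be separate measurements. Among 12 tubulin genes 8 were higher and 1 lower, from TUBA1A (2.73) to TUBA4A (-0.60). In R1881 only 3 of them were higher and 2 lower, beside 33.6% and 25.4% of all genes. HNRNP genes, which package and splice RNA, were higher in 11 of 20 and lower in 1, none at least 2-fold.

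Mitochondrial ribosomal protein genes were lower in 32 of 75 (42.7%) and higher in 9 (12.0%), with a median of -0.12 and MRPL38 (-1.58) the lowest. RAB GTPase genes, which direct vesicle traffic, were lower in 18 of 44 (40.9%) and higher in 10 (22.7%), with RAB27A, which acts in secretory vesicles, at -2.72. Of 331 long non-coding RNAs 98 were lower (29.6%) and 43 higher (13.0%), beside 25% and 30.7% of all genes, from LOC90246 (-2.94) to LINC01133 (1.84), and 70 were lower in both treatments.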
